A study of Mus musculus with 24 samples.

Results

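The unfolded protein response and the integrated stress response were followed through 36 genes in cultured mouse bone marrow macrophages. The genes were chosen by symbol, for their known place in these responses, from the 54532 Ensembl genes of the deposited count table. They comprise the 3 sensors and Xbp1, 7 regulators of the integrated stress response, 7 enzymes of amino acid and one-carbon metabolism, 11 chaperones of the endoplasmic reticulum (ER), 3 disulfide isomerases and 4 genes of ER-associated degradation. All but Cth had enough reads to be tested, so that 35 members are among the 14261 tested genes. Cth, which makes cysteine from cystathionine, was at 0.104 to 0.793 counts per 1000000 (CPM) in the 24 libraries and was not tested.

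RNA-seq of polyA RNA was done on 24 libraries in 8 groups of 3. All mice were C57BL/6 by label and 2 to 3 months old. Mice of 2 lines were used: mice with floxed Smad2 alleles (Smad2 fl/fl, here Smad2fl) with or without LyzM-Cre (MyS2KO), and mice with floxed Smad3 alleles (Smad3 fl/fl, here Smad3fl) with or without LyzM-Cre (MyS3KO). Marrow cells from the tibia were grown with CSF-1, after a first day with IL-3 from conditioned medium as well, and kept without serum for about 16 hours. 1 group per genotype then had TGF-β1 at 10 ng/ml for 4 hours, and the other was left untreated. Smad2 and Smad3 are the 2 transcription factors through which TGF-β receptors signal, so the groups ask how macrophages answer TGF-β1 with and without each of them. LyzM-Cre acts in myeloid cells, neutrophils among them, and its deletion in cultured macrophages need not be complete. The labels' protocol speaks of 8 cDNA libraries, whereas each of the 24 samples has its own column of counts and was taken here as 1 library. Nothing in the labels says whether libraries with different numbers came from different mice, so p-values measure the spread between these libraries, which may be partly technical.

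When unfolded protein builds up in the ER, the sensors PERK (Eif2ak3), IRE1α (Ern1) and ATF6 are released from the chaperone BiP (Hspa5). ATF6 is cut to an active transcription factor, IRE1α splices Xbp1 mRNA into the form that encodes an active factor, and both raise transcription of chaperones and degradation genes. PERK phosphorylates eIF2α, which lowers translation in general and raises that of ATF4, the factor that induces CHOP (Ddit3), Trib3, Chac1, Asns and other genes of the integrated stress response. Splicing, cleavage and phosphorylation are not read by gene counts, so the values below are RNA levels only.

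The binding elements of the 2 responses are short, and 5 promoter stretches are shown as examples of members with an ER stress response element, a C/EBP-ATF element or both. All 5 were picked from members called lower with TGF-β1 averaged over genotypes. Hsp90b1, Canx, Dnajc3, Syvn1, Dnajb11 and Trib3 have such elements too and were not called in that average. The windows come from the RefSeq promoter table of build GRCm38.p6, and 32 of the 36 members were in it; Atf6, Hyou1, Manf and Cth were not. Each line below gives the gene, its position and the bases just before the annotated start, on the strand of the gene, with the matched letters of a motif in capitals.
Hspa5, chr2:34771940-34772089, plus strand, ER stress response element: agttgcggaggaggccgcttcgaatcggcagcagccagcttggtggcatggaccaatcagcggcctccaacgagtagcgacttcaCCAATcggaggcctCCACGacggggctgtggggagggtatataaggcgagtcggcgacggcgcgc
Pdia6, chr12:17266439-17266588, plus strand, ER stress response element: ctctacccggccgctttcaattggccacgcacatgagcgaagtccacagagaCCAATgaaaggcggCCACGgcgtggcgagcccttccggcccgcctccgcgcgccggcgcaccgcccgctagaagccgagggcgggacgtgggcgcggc
Herpud1, chr8:94386279-94386428, plus strand, C/EBP-ATF element on the opposite strand and then the second ER stress response element: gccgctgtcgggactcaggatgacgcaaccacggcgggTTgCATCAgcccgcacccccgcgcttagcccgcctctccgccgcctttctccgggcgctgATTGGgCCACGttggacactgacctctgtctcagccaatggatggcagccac
Chac1, chr2:119350992-119351241, plus strand, C/EBP-ATF element on the opposite strand: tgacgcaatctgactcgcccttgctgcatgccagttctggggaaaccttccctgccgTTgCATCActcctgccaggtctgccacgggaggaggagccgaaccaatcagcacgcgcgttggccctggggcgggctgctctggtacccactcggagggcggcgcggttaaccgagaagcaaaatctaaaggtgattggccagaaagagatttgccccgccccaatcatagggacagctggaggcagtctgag
Asns, chr6:7693210-7693359, minus strand, C/EBP-ATF element: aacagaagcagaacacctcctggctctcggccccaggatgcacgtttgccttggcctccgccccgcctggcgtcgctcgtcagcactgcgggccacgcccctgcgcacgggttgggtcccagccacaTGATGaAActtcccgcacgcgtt

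The ER stress response element (CCAAT, then 9 free bases, then CCACG, either strand) is the site that ATF6 binds together with NF-Y. It stood between 250 bases before and 50 after the start in 8 of the 32 members, against 0.137% of the 27018 genes in the table. These 8 are Hspa5, Hsp90b1, Calr, Canx, Creld2, Dnajc3, Pdia6 and Syvn1, and in Hspa5 the match lay 65 to 47 bases before the start. The second ER stress response element (ATTGG, 1 free base, CCACG) was in Herpud1 and Dnajb11, that is 2 of 32, against 0.0444% of all genes. TGATGNAA, the C/EBP-ATF element through which ATF4 acts, was in Asns, Chac1, Herpud1 and Trib3, 4 of 32, against 4.51% of all genes. The UPRE letters TGACGTGG were in none of the 32 windows and in 0.714% of all. These matches describe letters in a window and show neither binding nor a cause; Herpud1 was the one member with both an ER stress element and a C/EBP-ATF element.

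Total counts were 16868501 to 24918582 per library. Values per library are given as CPM of the library total scaled by TMM, a size factor that leaves most genes unchanged between libraries, and changes come from the edgeR quasi-likelihood test with Benjamini-Hochberg adjustment over all 14261 tested genes. A gene is called changed at an adjusted p under 0.05. All 11 macrophage markers looked at had reads, with 15889 to 32627 CPM in sum per library. Summed markers of mast cells and basophils, T and NK cells, erythroid and stromal cells reached at most 2.96 CPM, those of B and plasma cells 4.75 CPM, of neutrophils 33.4 CPM and of dendritic cells 40.4 CPM. Smad3 RNA was 424 ± 48.1 CPM (SD, n = 3) in untreated Smad3fl and 184 ± 24 CPM in untreated MyS3KO. In the Smad2 line it was lower than in both, at 41.4 ± 3.96 CPM in untreated Smad2fl and 31.2 ± 4.19 CPM in untreated libraries labelled MyS2KO. The 2 control genotypes thus differed in Smad3 RNA itself, and MyS3KO stayed above the Smad2 line. The cause was not tested. Smad2 RNA was not lower in the libraries labelled MyS2KO, with 40.4 ± 2.9 CPM against 42.2 ± 2.98 CPM in Smad2fl, so the count over the gene does not check that label. Principal component 1 (32.7% of variance) set Smad3fl libraries off from the rest, the untreated one numbered 3 excepted. Transcripts of ribosomal proteins took 1.14 ± 0.27% and 1.06 ± 0.09% of counts in untreated and treated Smad3fl, and 1.76% to 2.04% in the means of the other groups.

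Per length, the highest member was Hspa5, with a mean of 725 FPKM over the 24 libraries (572 to 944). The ER-resident folding machinery filled the next places, with Pdia3 at 380 FPKM, Calr at 338 FPKM and Canx at 251 FPKM. Atf4 and Ddit3 followed at 237 and 216 FPKM, above Mthfd2 (185 FPKM) and Pdia6 (162 FPKM). The ranges over libraries of Pdia3 (289 to 475 FPKM) and Calr (255 to 466 FPKM) overlapped. The sensors were low, with Ern1 at 45.7 FPKM, Atf6 at 30.9 FPKM and Eif2ak3 at 10.3 FPKM, while Xbp1 was at 111 FPKM. At the low end stood Phgdh and Psph, 2 enzymes of serine synthesis, at 7.17 and 5.47 FPKM, and Cth at 0.286 FPKM. CHOP and ATF4 mRNA were thus within the range of abundant ER chaperones, per length, in these serum-starved macrophages. In bulk RNA of this kind, fewer cells with a transcript and less of it per cell cannot be told apart.

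The main fit does not pair libraries by number. In it TGF-β1 lowered a small set of these genes, led by the sensor gene Atf6 and the degradation genes Herpud1 and Sel1l. None of the 35 was called higher within a genotype. With the library number as a block, given further below, 17 members were called lower in Smad3fl. Calls in the main fit were 4 lower in Smad2fl, 1 lower in the libraries labelled MyS2KO, 7 lower in Smad3fl and 2 lower in MyS3KO. The same tests called 11.1%, 3.41%, 12.0% and 10.0% of all tested genes in these genotypes, in either direction. Against these shares, members called were near or below in 2 of the 4 genotypes (2.86% in the libraries labelled MyS2KO, 5.71% in MyS3KO). In Smad2fl they were 11.4% of the members and in Smad3fl 20%. All member calls were lower, and the share of all genes called lower within a genotype is not given here. The member counts are therefore not set against a share of the same direction. The direction was alike: the median member change was -0.26, -0.14, -0.33 and -0.11 on the log2 scale in Smad2fl, MyS2KO-labelled, Smad3fl and MyS3KO libraries, against 0.01, 0.01, -0.03 and 0.00 for all genes.

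Atf6 (chr1:170704674-170867771) encodes the sensor that becomes a transcription factor after cleavage in the Golgi. In the Smad2 line it was at 181, 208 and 212 CPM in untreated Smad2fl and 96.1, 112 and 115 CPM with TGF-β1. Those labelled MyS2KO held 213, 220 and 212 CPM untreated and 146, 150 and 145 CPM with TGF-β1. In the Smad3 line Smad3fl went from 149, 142 and 191 CPM to 78.6, 73.4 and 76.5 CPM, and MyS3KO from 213, 152 and 145 CPM to 120, 82.5 and 82.8 CPM. No treated library reached an untreated one of its genotype. The log2 changes were -0.89 ± 0.15 (SE, adjusted p = 0.000303), -0.55 ± 0.15 (0.0492), -1.08 ± 0.16 (3.44e-05) and -0.84 ± 0.16 (0.000691) in Smad2fl, MyS2KO-labelled, Smad3fl and MyS3KO libraries by edgeR. It was the only member called in all 4 genotypes, and the call in the libraries labelled MyS2KO was lost in 7 of 13 alternative settings, all 6 that leave out 1 library among them, while the change stayed between -0.60 and -0.52.

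Herpud1 (chr8:94386438-94395377), whose membrane protein helps to assemble the degradation complex of the ER, carries both kinds of element in the promoter shown above. Its levels fell from 94.3, 118 and 111 CPM to 53.9, 54.9 and 65.8 CPM in Smad2fl and from 135, 127 and 185 CPM to 73.8, 87.5 and 89.1 CPM in Smad3fl. They were 99.3, 107 and 97.7 CPM and 83.5, 64 and 65.9 CPM in untreated and treated MyS3KO. In the libraries labelled MyS2KO they were 108, 106 and 129 CPM untreated and 71.3, 75.1 and 101 CPM treated. The groups did not overlap in any genotype. By edgeR the changes were -0.89 ± 0.16 in Smad2fl (adjusted p = 0.000487), -0.83 ± 0.16 in Smad3fl (0.000867) and -0.51 ± 0.16 in MyS3KO (0.0454), the last kept in 7 of 13 settings. The libraries labelled MyS2KO gave -0.47, not called.

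Sel1l (chr12:91806043-91849157) encodes the partner of the ubiquitin ligase HRD1. It was at 227, 229 and 232 CPM in untreated and 171, 172 and 173 CPM in treated Smad2fl. Libraries labelled MyS2KO had 227, 225 and 244 CPM and then 198, 193 and 196 CPM. Smad3fl went from 248, 249 and 330 CPM to 188, 189 and 187 CPM, and MyS3KO from 267, 258 and 257 CPM to 219, 208 and 209 CPM. Groups were apart in each genotype, and the fall was called in Smad2fl (-0.41 ± 0.10, edgeR adjusted p = 0.0093) and Smad3fl (-0.55 ± 0.10, 0.000665). Atf6, Herpud1 and Sel1l were the 3 members with every treated library below every untreated one in all 4 genotypes, a pattern that 1.90% of the tested genes showed; no member had the opposite pattern. The other 2 degradation genes moved less. Edem1, which directs misfolded glycoproteins to degradation, fell by 0.33 ± 0.11 on the log2 scale in Smad3fl (adjusted p = 0.0481), a call kept in 5 of 14 settings, and Syvn1, which encodes HRD1 itself, was called in no genotype.

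**Figure D1:**
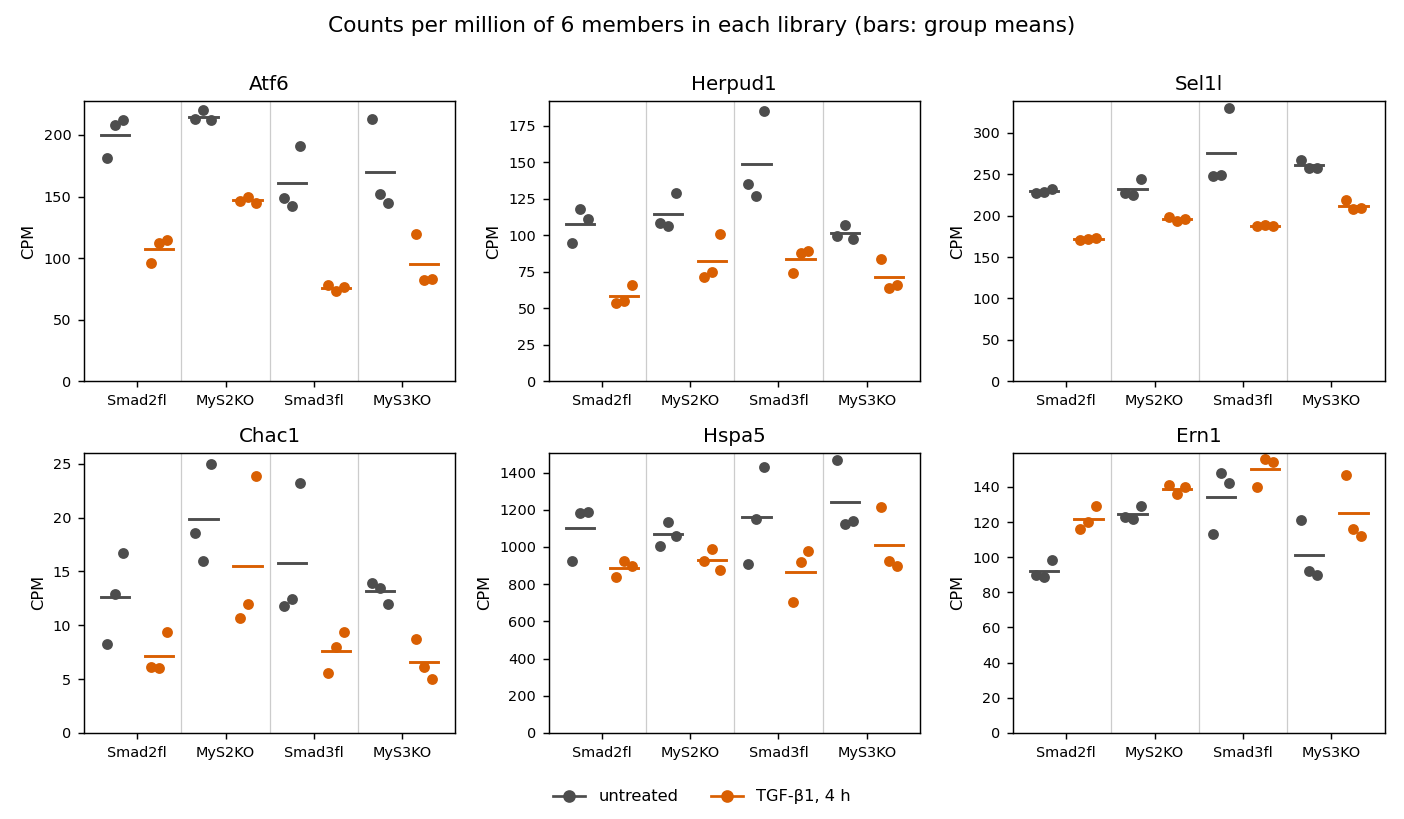
CPM (vertical axis, from 0) of Atf6, Herpud1, Sel1l, Chac1, Hspa5 and Ern1 in each of the 24 libraries, by genotype on the horizontal axis; points are libraries numbered 1 to 3 from left to right, grey untreated and orange with TGF-β1, and bars are group means. Treated Atf6, Herpud1 and Sel1l points lie below all untreated points of the same genotype, whereas Ern1 points lie higher with TGF-β1 in both genotypes of the Smad2 line.

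Among the regulators of the integrated stress response, Chac1 (chr2:119351229-119354381), which degrades glutathione and is an ATF4 target, had the deepest fall. It was at 8.27, 12.9 and 16.7 CPM in untreated Smad2fl and at 6.08, 6.03 and 9.34 CPM with TGF-β1. Smad3fl held 11.8, 12.4 and 23.2 CPM and then 5.57, 8 and 9.34 CPM, and MyS3KO 13.9, 13.5 and 12 CPM and then 8.7, 6.1 and 5.02 CPM. The libraries labelled MyS2KO were at 18.6, 16 and 25 CPM untreated and 10.7, 12 and 23.9 CPM treated. Only the Smad3fl change passed the test (-1.05 ± 0.33, edgeR adjusted p = 0.0373), and there it was lost in 5 of 14 settings. In MyS3KO the groups did not overlap either, but the change was not called.

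Atf4 and Ddit3, the 2 central transcription factors of the response, were called in no genotype. Atf4 was at 296, 380 and 414 CPM in untreated Smad2fl and 286, 311 and 365 CPM with TGF-β1, and at 426, 391 and 448 CPM against 349, 336 and 427 CPM in the libraries labelled MyS2KO. In Smad3fl it was at 341, 388 and 468 CPM and then 269, 315 and 315 CPM, and in MyS3KO at 365, 301 and 272 CPM and then 407, 273 and 274 CPM. The ranges overlapped except in Smad3fl. Ddit3 was at 134, 161 and 198 CPM in untreated Smad2fl against 123, 130 and 182 CPM, and at 223, 219 and 225 CPM against 192, 201 and 223 CPM in the libraries labelled MyS2KO. It was at 194, 256 and 245 CPM against 121, 181 and 166 CPM in Smad3fl, and at 227, 148 and 126 CPM against 202, 102 and 102 CPM in MyS3KO. Their log2 changes were -0.41 and -0.57 in Smad3fl and between -0.30 and 0.02 in the other genotypes. Trib3, a pseudokinase that restrains ATF4 signalling, Sesn2 and Ddit4, stress-induced inhibitors of mTORC1, and Ppp1r15a, the regulatory subunit that takes eIF2α back to its unphosphorylated state, were not called in any single genotype either. Treated Ddit3, Trib3, Sesn2 and Ppp1r15a also lay below all untreated libraries in Smad3fl, and overlapped them in the other genotypes. A fit with the library number as a block, given below, called these and Atf4 lower in Smad3fl.

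**Figure D2:**
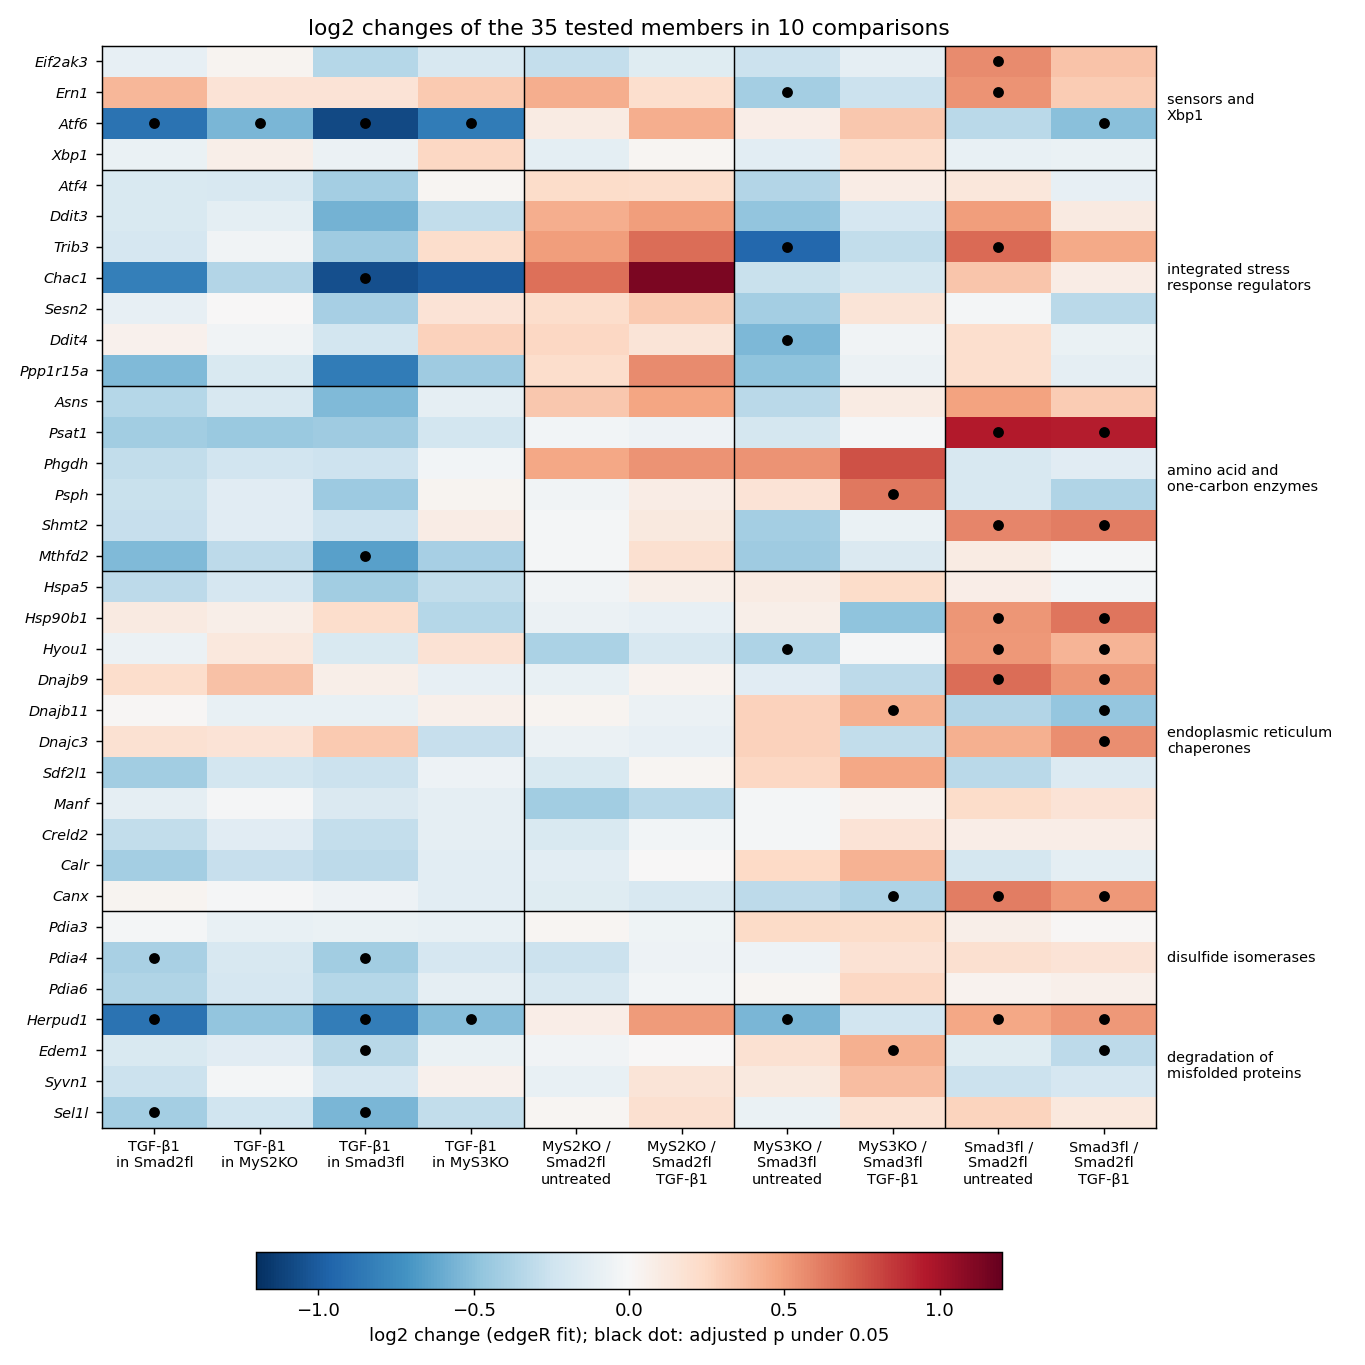
Heat map of the log2 changes of the 35 tested members (rows, grouped by role) in 10 comparisons (columns) from the edgeR fit, on a colour scale from -1.2 to 1.2; a black dot marks an adjusted p under 0.05. The dots of the 4 TGF-β1 columns are all on blue (lower) cells, with 4, 1, 7 and 2 dots, and the last 2 columns hold 10 and 8 dots on red (higher) cells and 3 on blue ones.

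The enzymes that ATF4 induces for amino acid and one-carbon supply gave 1 call within a genotype. Mthfd2 (chr6:83305691-83325908), a mitochondrial folate enzyme, was at 165, 204 and 218 CPM in untreated and 124, 130 and 151 CPM in treated Smad2fl. In the libraries labelled MyS2KO it was at 198, 173 and 206 CPM and then 144, 140 and 180 CPM. It fell in Smad3fl from 162, 205 and 262 CPM to 107, 139 and 153 CPM (-0.65 ± 0.21, edgeR adjusted p = 0.0403, kept in 8 of 14 settings). MyS3KO libraries held 199, 138 and 129 CPM and then 158, 99 and 97.7 CPM. All 6 tested enzymes were fitted below 0 in Smad2fl, the libraries labelled MyS2KO and Smad3fl, and 4 of 6 in MyS3KO, with 1 of these 24 values called. The other enzymes are Asns, which makes asparagine, Psat1, Phgdh and Psph of serine synthesis, and Shmt2, the mitochondrial serine hydroxymethyltransferase.

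None of the 11 chaperones was called in any genotype, and their median change was between -0.17 and -0.01. Hspa5 (chr2:34771970-34777547), the main ER chaperone, was at 926, 1185 and 1189 CPM in untreated and 837, 925 and 896 CPM in treated Smad2fl. Libraries labelled MyS2KO had 1008, 1135 and 1059 CPM and then 926, 988 and 876 CPM. Smad3fl had 908, 1150 and 1428 CPM and then 705, 919 and 978 CPM, and MyS3KO 1468, 1123 and 1140 CPM and then 1214, 927 and 896 CPM. The treated libraries were below all untreated ones in the Smad2 line and overlapped them in the Smad3 line. Pdia4 (chr6:47796141-47813430), a disulfide isomerase, was called lower in Smad2fl (84.5, 105 and 92.2 CPM to 76.5, 76.2 and 62.1 CPM; -0.39 ± 0.12, adjusted p = 0.0353 by edgeR) and in Smad3fl. There it went from 105, 95 and 121 CPM to 78.3, 81.7 and 79.2 CPM (-0.42 ± 0.12, adjusted p = 0.0218), and each of these calls held in about as many settings as lost it, with 7 of 13 and 7 of 14 kept. In the libraries labelled MyS2KO Pdia4 was at 80.7, 78.6 and 76.3 CPM and then 73.5, 69.6 and 63.4 CPM, and in MyS3KO at 90, 103 and 115 CPM and then 88.7, 88.5 and 91.4 CPM. Pdia3, the isomerase that works with Calr and Canx on glycoproteins, moved by -0.02 to -0.09.

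Ern1 and Xbp1 did not follow Atf6. Ern1 (chr11:106394650-106487852), the gene of the IRE1α sensor, was at 89.8, 88.9 and 98.3 CPM in untreated and 116, 120 and 129 CPM in treated Smad2fl, and at 123, 122 and 129 CPM and then 141, 136 and 140 CPM in the libraries labelled MyS2KO. Smad3fl held 113, 148 and 142 CPM and then 140, 156 and 154 CPM, and MyS3KO 121, 92.3 and 89.7 CPM and then 147, 116 and 112 CPM. Treated libraries were above all untreated ones in the Smad2 line only. Dnajb9, a chaperone gene, showed the same pattern and was not called in any genotype. Xbp1 (chr11:5520659-5525893) was at 140, 169 and 144 CPM against 141, 146 and 142 CPM in Smad2fl and 141, 126 and 149 CPM against 129, 138 and 170 CPM in the libraries labelled MyS2KO. In the Smad3 line it was at 118, 126 and 183 CPM against 116, 146 and 144 CPM in Smad3fl and 139, 124 and 127 CPM against 172, 150 and 143 CPM in MyS3KO. Xbp1 ranges overlapped in 3 genotypes and its changes ran from -0.08 to 0.25. Eif2ak3, the PERK gene, was called in none.

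Averaged over the 4 genotypes, which gives the TGF-β1 change 12 libraries a side, 14 members were lower and 1 was higher. This is 42.9% of the members, against 30.1% of all tested genes in either direction and 13.9% called lower. The 8 members with the smallest adjusted p were as follows, all by edgeR. Atf6 fell by 0.84 ± 0.08 on the log2 scale (adjusted p = 1.13e-08), Herpud1 by 0.68 ± 0.08 (6.09e-07) and Sel1l by 0.38 ± 0.05 (4.86e-06). Pdia4 dropped by 0.30 ± 0.06 (0.000473), Chac1 by 0.80 ± 0.16 (0.000552) and Mthfd2 by 0.47 ± 0.10 (0.00112). Psat1 decreased by 0.38 ± 0.09 (0.00248). Ern1 was the member that rose, by 0.26 ± 0.06 (0.00405). Pdia6, Hspa5, Ppp1r15a, Edem1, Calr, Asns and Creld2, an ER protein that helps folding, were the other lower ones, between -0.18 for Edem1 and -0.49 for Ppp1r15a. Pdia6 (chr12:17266545-17284770), a further disulfide isomerase, shows the size of these small falls: its untreated libraries were at 179, 250 and 194 CPM in Smad2fl and 201, 191 and 248 CPM in Smad3fl, and the treated ones at 161, 176 and 148 CPM and 154, 174 and 177 CPM. Its values were 177, 168 and 202 CPM and then 153, 168 and 154 CPM in the libraries labelled MyS2KO, and 216, 217 and 218 CPM and then 223, 178 and 200 CPM in MyS3KO.

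Of the 35, 19 members were fitted below 0 in all 4 genotypes and 1, Ern1, above 0 in all 4. The share of all tested genes with 1 sign in all 4 was not counted, so this is not read as particular to the members. By role, the averaged change called 3 of 4 degradation genes lower, 2 of 3 isomerases, 3 of 6 enzymes, 3 of 11 chaperones and 2 of 7 regulators, against 13.9% of all tested genes. Hsp90b1 (GRP94), Hyou1, Dnajb9, Dnajb11, Dnajc3, Sdf2l1, Manf and Canx, the remaining chaperones, co-chaperones and secreted ER proteins, were not called. In Smad3fl and in the libraries labelled MyS2KO, same-numbered untreated and treated libraries deviated together over all genes (r 0.33 to 0.45 and 0.15 to 0.41). In Smad2fl these r were smaller, at 0.05 to 0.16, but above those of differently numbered libraries (-0.16 to 0.04), so pairing there is not settled. With the number as a block the members called went from 7 to 17 in Smad3fl, all lower, with Atf4, Ddit3, Trib3, Sesn2, Ppp1r15a, Asns, Psat1, Hspa5, Pdia6 and Eif2ak3 added to the 7 above. They went from 1 to 4 in the libraries labelled MyS2KO (Atf6, Herpud1, Mthfd2 and Psat1), and Smad2fl had 1 higher and 12 lower. The median member change with the block was -0.33 in Smad3fl and -0.13 in the libraries labelled MyS2KO, near that without it. The share of all genes called with the block is not given here, so the rise is not read as particular to the members. Without both Smad3fl libraries numbered 3, Atf6, Herpud1 and Sel1l were the calls left in Smad3fl. Scaling by library totals, which moves the median of all genes by up to 0.15 in the comparisons made here, gave 1 higher and 3 lower calls in Smad2fl and 1 higher and 3 lower in MyS3KO, the higher one being Ern1 in both; DESeq2 gave 1 higher and 5 lower in Smad2fl.

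The interaction test asks whether the TGF-β1 change itself differed between a knockout and its control. No member passed it in the Smad2 line (0.00701% of all genes did) or the Smad3 line (0.0210%). At an unadjusted p under 0.05 there were 0 and 3 members, the smallest adjusted p in the Smad3 line was 0.728, for Trib3, and DESeq2 called none in either line. The Atf6 change was smaller by 0.34 in the libraries labelled MyS2KO and by 0.24 in MyS3KO than in their controls, differences that were not called. The smaller number of calls in these groups is therefore not shown to be a smaller effect.

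Between the libraries labelled MyS2KO and Smad2fl no member was called, untreated or with TGF-β1, where edgeR called 0.0701% and 0.421% of all genes. At an unadjusted p under 0.05 there were 4 and 6 members, and DESeq2 called 0 and 1. The 7 regulators were all fitted above 0 in both conditions, with medians of 0.25 and 0.50 against 0.01 for all genes. With TGF-β1, Chac1 was 1.13 higher on the log2 scale (adjusted p = 0.167 by edgeR) and its groups did not overlap.

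MyS3KO macrophages were lower than Smad3fl in 5 members when untreated, 2 of them regulators of the integrated stress response. The 5 are 14.3% of the members, against 17.7% of all genes. Trib3 (chr2:152337422-152344032) was at 99.8, 121 and 139 CPM in Smad3fl and 74.1, 60 and 53.5 CPM in MyS3KO, without overlap (-0.94 ± 0.26, edgeR adjusted p = 0.0135). Herpud1 was at 127 to 185 CPM in Smad3fl and 97.7 to 107 CPM in MyS3KO (-0.55 ± 0.16, adjusted p = 0.0194). Ddit4 (-0.54 ± 0.18, adjusted p = 0.0374), Ern1 (-0.41 ± 0.13, 0.0301) and Hyou1, a large chaperone of the Hsp70 kind (-0.37 ± 0.13, 0.0499), were the others. Hyou1 (chr9:44379490-44392369) was at 120, 120 and 128 CPM in untreated Smad3fl and 85.1, 95.6 and 104 CPM in MyS3KO, against 81, 97.5 and 77.3 CPM in untreated Smad2fl and 64.6, 53.8 and 77.6 CPM in the libraries labelled MyS2KO. With TGF-β1 it was at 88.8, 84.8 and 69.6 CPM in Smad2fl, 69.3, 69.2 and 75.3 CPM in the libraries labelled MyS2KO, 104, 110 and 109 CPM in Smad3fl and 109, 102 and 110 CPM in MyS3KO.

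The number 3 library of untreated Smad3fl had the highest value of its group for 28 of the 35 tested members, and for 40.3% of all tested genes. Within MyS3KO, library 1 was the highest of 3 for 22 members untreated and 21 with TGF-β1, and for 40.9% and 37.9% of all tested genes; its Ddit3 was 227 CPM against 148 and 126 CPM in the others. The same libraries stood apart in Lyz2, a lysozyme gene of myeloid cells. It was at 6814 CPM in untreated Smad3fl library 3 against 2771 and 2547 CPM, and in MyS3KO library 1 at 4388 CPM against 2022 and 2268 CPM untreated and 4516 CPM against 1420 and 1919 CPM with TGF-β1. The part of these library differences in the members' values was not tested. Lyz2 also went with the genotype label in the Smad2 line. It was at 11226 ± 400 CPM (SD) in untreated Smad2fl and 6071 ± 760 CPM in the libraries labelled MyS2KO. With TGF-β1 it was at 8193 ± 735 and 4216 ± 152 CPM. Its ranges overlapped between Smad3fl and MyS3KO. Lyz2 is therefore not a measure of the library alone. Without both Smad3fl libraries numbered 3 the untreated comparison called Trib3 and Ddit4 lower and Dnajb11, Edem1 and Phgdh higher, and the median member change was 0.05. Without the untreated MyS3KO library numbered 3 no member was called, and DESeq2 gave 1 higher and 5 lower. Trib3 kept its call in 11 of 14 settings (-1.08 to -0.81 on the log2 scale), Herpud1 in 9 (-0.66 to -0.35), Ern1 in 7 (-0.56 to -0.33), Ddit4 in 7 (-0.65 to -0.43) and Hyou1 in 3 (-0.43 to -0.30). All 5 were below 0 in each of the 14 settings.

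With TGF-β1, MyS3KO against Smad3fl called 3 members higher and 1 lower (11.4% of members, 28.2% of all genes). Psph was higher by 0.63 ± 0.22 (adjusted p = 0.0369), Edem1 by 0.43 ± 0.11 (0.00644) and Dnajb11, a co-chaperone of BiP, by 0.43 ± 0.16 (0.0462), while Canx, the calnexin gene, was at -0.37 ± 0.12 (0.026), all by edgeR. Edem1 kept its call in 13 of 14 settings, the others in 3 to 7. The split depended on the scaling: 2 higher and 2 lower with the size factors of DESeq2 and in DESeq2 itself, and 1 higher and 4 lower with library totals.

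**Figure D3:**
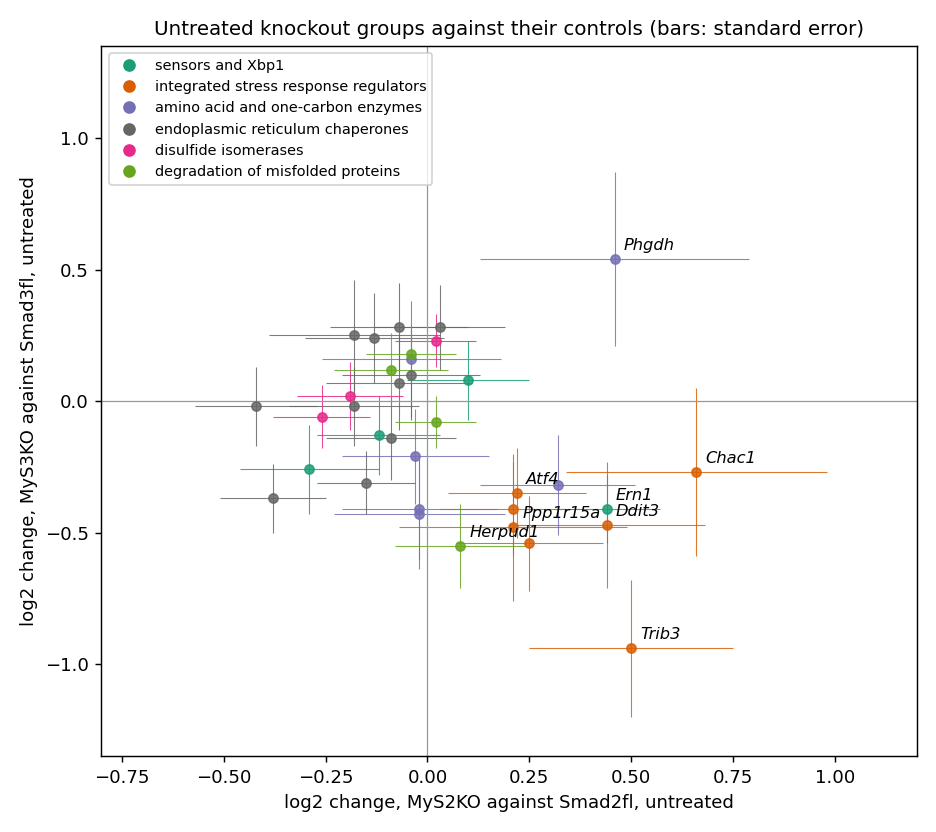
log2 change of each tested member in untreated libraries labelled MyS2KO against Smad2fl (horizontal) and in untreated MyS3KO against Smad3fl (vertical), coloured by role, with bars of 1 standard error. The 7 regulators (orange) lie to the right of 0 and below 0, with Trib3 at 0.50 and -0.94.

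In untreated libraries the 7 regulators were fitted in opposite directions in the 2 lines. With TGF-β1 their median in MyS3KO against Smad3fl was -0.07, with 5 of 7 below 0. The difference between the 2 knockout effects was tested as a comparison added after these values were seen. It called 2 members, 5.71%, against 4.93% of all genes in untreated cells, Trib3 and Ern1, both lower in the Smad3 line relative to the Smad2 line. With TGF-β1 the same test called none of the 35 members, against 7.09% of all genes; 6 were at an unadjusted p under 0.05, the smallest adjusted p was 0.051, for Herpud1, and DESeq2 called 1 higher and 2 lower. The 4 groups of each such test were cultured as 2 lines, so the line and the deleted gene cannot be told apart.

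Smad3fl and Smad2fl, the 2 control genotypes, also differed in these genes. Untreated, 10 members were higher in Smad3fl and none was lower (28.6% of members, against 33.4% of all genes, 17.7% being higher). With TGF-β1, 8 were higher and 3 lower (31.4% against 25.3%, 12.0% being higher). Counted over both directions together, the share of members was therefore near that of all genes. By direction it was not: untreated, all member calls were higher, 28.6% of members against 17.7% of all genes. With TGF-β1, 8 of the 35 were higher, against 12.0% of all genes. Whether the members differ from all genes in direction was not tested. Psat1 (chr19:15904678-15947337), the phosphoserine aminotransferase, differed most. It was at 20.2, 21.1 and 20.5 CPM in untreated Smad2fl and 30.7, 36.4 and 52.3 CPM in Smad3fl, and with TGF-β1 at 14.7, 14.4 and 17.2 CPM and 23.6, 33.4 and 31.9 CPM. Smad3fl libraries were above all those of Smad2fl in both conditions (0.95 ± 0.18 and 0.94 ± 0.18, edgeR adjusted p = 0.000509 and 0.000837). The libraries labelled MyS2KO were at 17.5, 20.9 and 22 CPM and then 14.5, 13.5 and 16.1 CPM, and MyS3KO at 38.5, 32 and 32.5 CPM and then 36, 25.1 and 27.5 CPM, so that the 2 lines did not overlap within a treatment.

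Canx (chr11:50293961-50325673) was at 449, 385 and 413 CPM in untreated Smad2fl and 619, 627 and 657 CPM in Smad3fl (0.61 ± 0.12, edgeR adjusted p = 0.000704), and with TGF-β1 at 426, 421 and 425 CPM and 597, 625 and 600 CPM (0.52 ± 0.12, 0.00366). The libraries labelled MyS2KO were at 391, 435 and 297 CPM and then 411, 374 and 332 CPM, and MyS3KO at 526, 518 and 495 CPM and then 467, 475 and 467 CPM. Smad3fl thus had the highest 6 values of the 24. Dnajb9 (chr12:44205559-44210326), a co-chaperone of BiP that IRE1α signalling induces, was at 19.2, 20.2 and 21.7 CPM in untreated Smad2fl and 32.8, 35.7 and 29 CPM in Smad3fl (0.67 ± 0.16, adjusted p = 0.00351), and with TGF-β1 at 23.2, 23 and 24.7 CPM and 32.1, 39.2 and 31 CPM. It was at 22.7, 21 and 13.5 CPM and then 27.1, 23 and 22.9 CPM in the libraries labelled MyS2KO, and at 33.7, 30.9 and 24.2 CPM and then 28, 26.3 and 28.4 CPM in MyS3KO. Ern1 (0.54 ± 0.13, adjusted p = 0.00334), Hyou1 (0.52 ± 0.13, 0.00413), Eif2ak3 (0.57 ± 0.17, 0.0121), Shmt2 (0.59 ± 0.19, 0.0208) and Hsp90b1 (0.53 ± 0.18, 0.0296) were also higher in untreated Smad3fl by edgeR, with Herpud1 and Trib3 as the remaining calls.

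With TGF-β1 the members called lower in Smad3fl were Atf6 (-0.50 ± 0.15, edgeR adjusted p = 0.0216), Dnajb11 and Edem1. Dnajc3, which inhibits PERK, was among the 8 called higher. Library totals gave 12 higher and 2 lower. Psat1 and Canx kept their calls in all 14 settings of both comparisons, and Hyou1 and Dnajb9 in all 14 of the untreated one. Without both Smad3fl libraries numbered 3 the untreated comparison gave 7 higher and 5 lower members (Atf6, Dnajb11, Edem1, Sdf2l1 and Syvn1), and the median member difference was 0.01. Trib3, Herpud1 and Shmt2 were no longer called there. Line comparisons and MyS3KO comparisons use the same Smad3fl libraries, so that Trib3, Ern1, Herpud1 and Hyou1, at 0.46 to 0.68 in untreated Smad3fl against Smad2fl and -0.94 to -0.37 in MyS3KO against Smad3fl (log2), are not 2 separate findings. The share of ribosomal protein transcripts was lower in each Smad3fl library than in any library of the other groups. Untreated Smad3fl library 3, the highest of its group for Trib3, Herpud1 and Psat1, had 1.42%, against 1.11% and 0.88% in libraries 1 and 2. The part of this share in the differences was not tested.

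**Figure D4:**
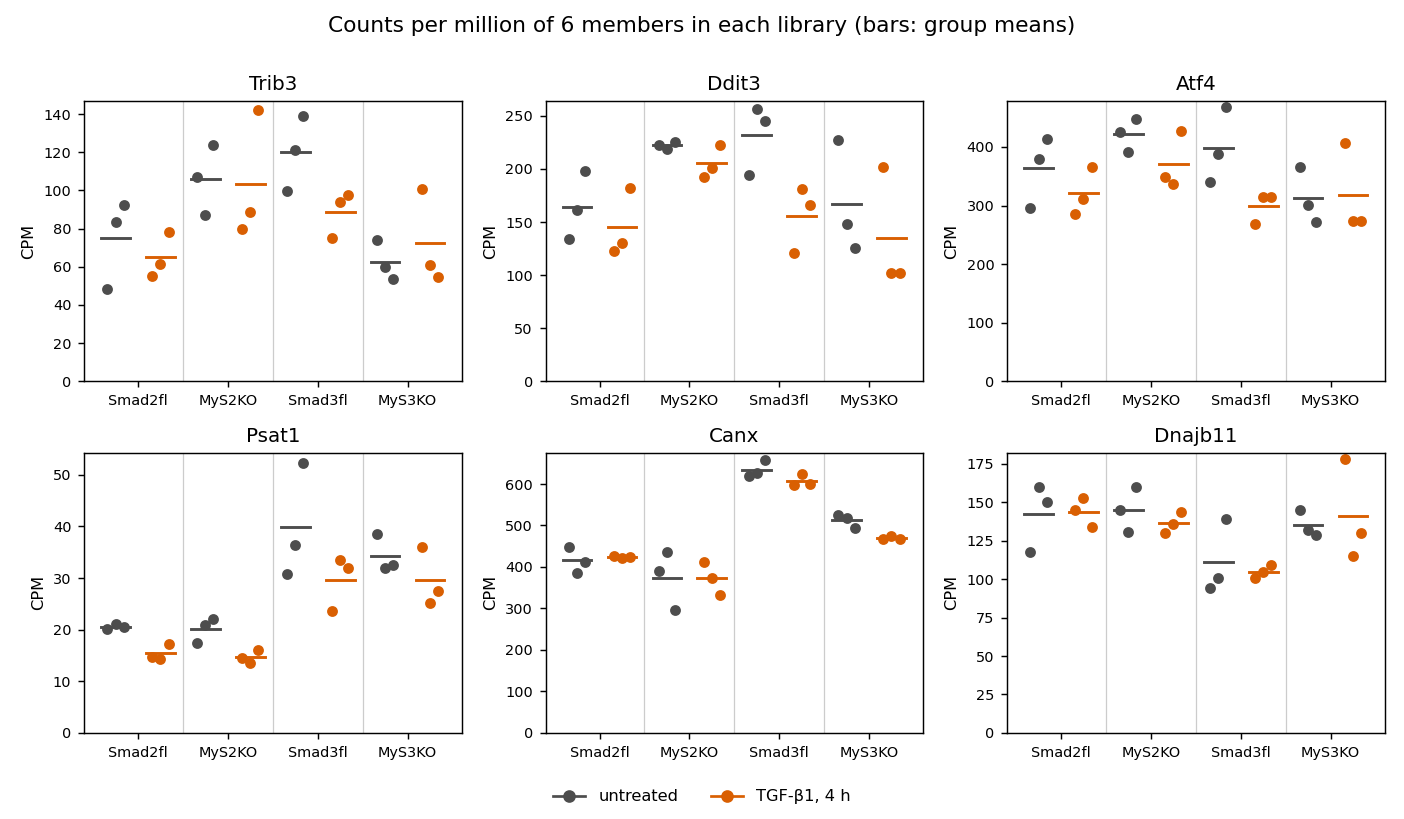
CPM (vertical axis, from 0) of Trib3, Ddit3, Atf4, Psat1, Canx and Dnajb11 in each of the 24 libraries by genotype; points are libraries numbered 1 to 3 from left to right, grey untreated and orange with TGF-β1, bars are group means. Psat1 is higher in both genotypes of the Smad3 line, Canx is highest in Smad3fl, and in MyS3KO the first library stands above the other two for Ddit3 and Atf4.

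Within a group, genes of the integrated stress response tended to be high in the same library. The 13 tested regulators and enzymes were highest in library 3 for 12 of 13 in untreated and 13 of 13 in treated libraries labelled MyS2KO, for 10 of 13 in each Smad2fl group, and for 10 and 9 of 13 in untreated and treated Smad3fl. In MyS3KO the highest was library 1, for 9 and 10 of 13. Of all tested genes, library 3 was the highest for 44.8% and 39.4% in untreated and treated libraries labelled MyS2KO. It was so for 27.5% and 35.5% in Smad2fl and for 40.3% and 34.9% in Smad3fl, and library 1 of MyS3KO for 40.9% and 37.9%. The median deviation of the regulators from their mean over all 24 libraries was 0.23 in treated MyS3KO library 1 and -0.49 and -0.59 in libraries 2 and 3, on the scale of log2(CPM + 1). Of the 22 sensors and ER genes, 18 were highest in untreated Smad3fl library 3, 14 in treated Smad3fl library 2, 13 in library 3 of the untreated MyS2KO-labelled group and 13 in untreated MyS3KO library 1, while untreated Smad2fl had 5, 12 and 5. The shares of all tested genes were 40.3%, 29.7%, 44.8% and 40.9% in the same order, and 34.0%, 38.5% and 27.5% in untreated Smad2fl. Whether the 2 sets differ in this was not tested.

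**Figure D5:**
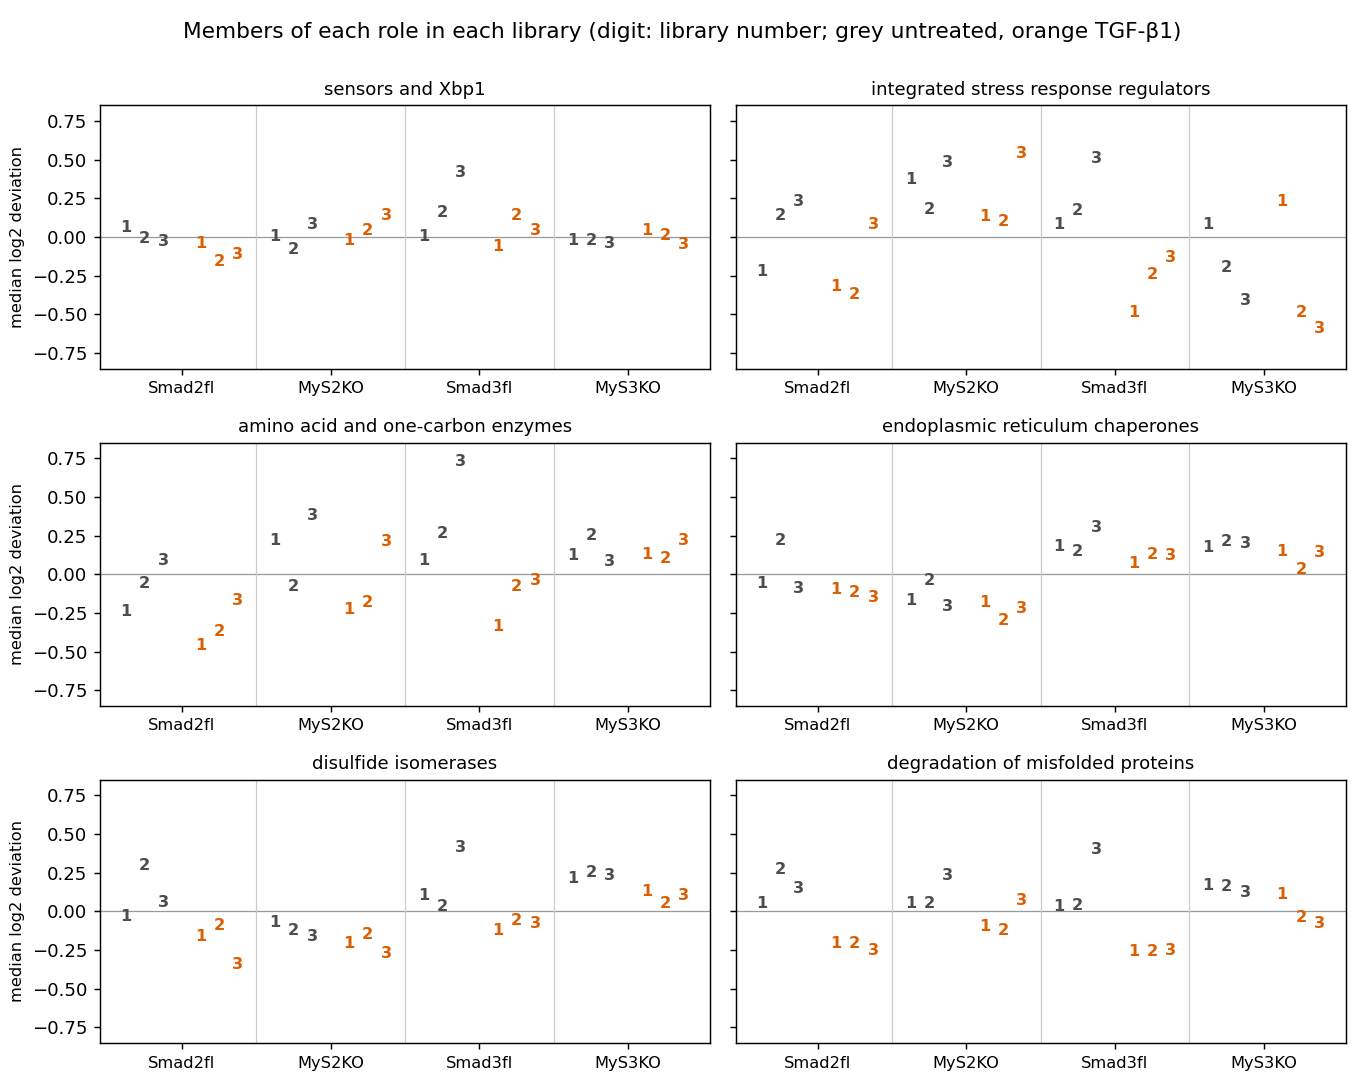
Median over the members of each role of log2(CPM + 1) minus the mean of the member over all 24 libraries (vertical axis), by genotype (horizontal axis); each digit is the number of a library, grey untreated and orange with TGF-β1. Degradation genes are lower with TGF-β1 in Smad2fl, at -0.25 to -0.21 treated against 0.05 to 0.27 untreated, and in Smad3fl, at -0.26 to -0.25 against 0.03 to 0.40. In the libraries labelled MyS2KO the ranges overlap (-0.12 to 0.07 treated, 0.05 to 0.23 untreated). In MyS3KO the highest treated value is 0.11 and the lowest untreated one is 0.12. Library 3 of untreated Smad3fl is the highest grey digit of its group in every panel.

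The other genes of the pathway were read from 4 further lists. Of 44 tested further ER folding, translocation and degradation genes, 5 were higher and 5 lower with TGF-β1 averaged over genotypes (22.7%, against 30.1% of all tested genes), with a median of -0.02 against -0.01 for all genes. Creb3l2, an ER-anchored transcription factor related to ATF6 that is cut in the same way, was the exception in size. It rose by 2.84 ± 0.26, 2.42 ± 0.26, 3.77 ± 0.27 and 2.90 ± 0.26 on the log2 scale in Smad2fl, MyS2KO-labelled, Smad3fl and MyS3KO libraries (edgeR adjusted p = 4.97e-08, 1.82e-06, 1.01e-09 and 3.16e-08), while its relative Creb3 fell by 0.59 ± 0.09 on average (1.41e-05). Of 19 tested tRNA synthetases of the cytosol, many of them ATF4 targets, 8 were lower and 1 higher on average (47.4%, against 30.1% of all tested genes), with a median of -0.14; Iars fell by 0.31 ± 0.05 (adjusted p = 1.28e-05).

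Of 25 tested other ATF4 targets, 5 were higher and 6 lower with TGF-β1 on average (44%, against 30.1% of all tested genes). Cebpb, a partner of ATF4, rose by 1.10 ± 0.15 (edgeR adjusted p = 3.01e-06) and Cebpd fell by 1.67 ± 0.15 (5.22e-09). In untreated Smad3fl against Smad2fl 9 were higher and 1 lower (40%, against 33.4% of all tested genes). Among them Slc7a11, the cystine transporter, was 3.41 ± 0.38 higher (adjusted p = 1.51e-06). In untreated MyS3KO against Smad3fl 7 were lower and 1 higher (32%, against 17.7% of all tested genes), among them Mthfd1l at -1.36 ± 0.23 (0.00043). Of the 13 kinases and subunits of eIF2 and eIF2B and their partners, 3 were higher with TGF-β1 on average and none lower (23.1%, against 30.1% of all tested genes), namely Eif2s1, which encodes eIF2α (0.53 ± 0.07, adjusted p = 1.87e-06), Eif2ak4, the GCN2 kinase that senses uncharged tRNA (0.39 ± 0.07, 0.000139), and Gcn1l1, its activator (0.34 ± 0.07, 0.000896).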

How the data were processed

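RNA-seq of polyA RNA from 24 libraries of bone marrow macrophages (150 base paired reads) was analysed in 8 groups of 3, taken from the labels. The deposited table of the authors holds raw read counts per Ensembl gene, and a second deposited table holds FPKM, which equal those counts per kilobase of 1 length per gene and per 1000000 counted reads. The submitters' processing notes name TopHat2 2.0.9, HTSeq 0.6.1 and Cufflinks 2.1.1 and the builds mm10 and GRCm38.p6, without saying which did what; the strand setting is not given in the sources used here. Exons of 12 of the 36 members share bases with another gene of GENCODE vM21, in no case over 20% of the member's exon bases with 1 gene, so a small part of those counts could belong to the neighbour. Ddit3 has 2 Ensembl entries, of which the one with reads was used.

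Counts were tested with edgeR 4.0.16 (R 4.3.3; TMM, filterByExpr, quasi-likelihood test) in 1 fit over all 24 libraries, with p-values adjusted by Benjamini and Hochberg over 14261 genes; 26189 of the 54532 genes had no read. The median biological coefficient of variation was 21.2% with 16 residual degrees of freedom. A standard error is the log2 change divided by the root of F. The fit was tested on simulated data before use. FPKM served only to rank members by level. Alternatives were size factors of DESeq2, library totals, no filter, a filter of 1 CPM in 3 libraries, DESeq2 1.42.0, the library number as a block, a fit on only the groups compared, leaving out each library, and leaving out both Smad3fl libraries numbered 3. A replicate number was taken to pair libraries where every same-numbered pair of untreated and treated libraries had a correlation of deviations above 0.1. This held in Smad3fl (0.45, 0.34 and 0.33) and in the libraries labelled MyS2KO (0.15, 0.22 and 0.41). The rule comes from the data, since the labels state no shared mouse or day, and it leaves out differently numbered pairs. In Smad2fl the same-numbered pairs (0.05, 0.13 and 0.16) were above all differently numbered ones (-0.16 to 0.04). In the libraries labelled MyS2KO the 0.15 of number 1 was below the 0.20 of untreated library 2 with treated library 1.

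The members, the roles and the lists of other genes were chosen with earlier results of these data known. All members are named; statistics in full are given for called members, at most the 8 with the smallest adjusted p in a comparison, and values in every library for the 12 members with the smallest adjusted p in any single comparison and for Atf4, Hspa5, Xbp1 and Ddit3. For each further list up to 3 called genes may be named. Promoter letters come from the RefSeq table of GRCm38.p6. No library pair was identical; the highest correlation of log2(CPM + 1) between 2 libraries was 0.9970. Of 20 tRNA synthetase symbols 19 were matched in the table.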

Additional observations from a re-analysis of the deposited data

Results flagged for a closer look

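The effect of the knockout on Trib3 and on Ern1 differed between the lines in untreated macrophages by a test of the difference itself, a comparison added after the data were seen. Trib3 was higher by 0.50 in the libraries labelled MyS2KO against Smad2fl and at -0.94 in MyS3KO against Smad3fl, a difference of -1.45 ± 0.36 on the log2 scale (edgeR adjusted p = 0.0237). It was at 48.4, 83.7 and 92.6 CPM in Smad2fl and 107, 87.1 and 124 CPM in the libraries labelled MyS2KO. The call was lost in 7 of 20 settings, 6 of which leave out 1 library, and the difference stayed between -1.61 and -1.14. Ern1 was higher by 0.44 in the libraries labelled MyS2KO and at -0.41 in MyS3KO, a difference of -0.85 ± 0.18 (edgeR adjusted p = 0.0109). Its call was lost in 3 of 20 settings, namely without the untreated MyS3KO library numbered 2, without the one numbered 3 and with only the groups compared, and its range was -0.99 to -0.74. Each effect has 3 libraries a side, and the line and the deleted gene cannot be told apart.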

How the results depend on the processing

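No called member changed its direction under any of the alternatives run, but counts of called members did change. With the library number as a replicate block, the TGF-β1 counts were 13 instead of 4 in Smad2fl and 9 instead of 2 in MyS3KO. Same-numbered libraries had correlations of 0.05 to 0.16 and 0.04 to 0.41 in these 2 genotypes, so pairing there is not settled. The block gave 17 instead of 7 in Smad3fl and 4 instead of 1 in the libraries labelled MyS2KO. It gave 3 instead of 5 for untreated MyS3KO against Smad3fl and 2 instead of 0 for the difference of knockout effects with TGF-β1. Fitting only the groups compared gave 2 for TGF-β1 in Smad3fl, 1 for the libraries labelled MyS2KO against Smad2fl with TGF-β1, 0 and 8 for MyS3KO against Smad3fl untreated and with TGF-β1, 4 for untreated Smad3fl against Smad2fl, and 0 and 2 for the differences of knockout effects. Without a filter on low counts the counts were 0 for TGF-β1 in the libraries labelled MyS2KO, 2 for these against Smad2fl with TGF-β1, 2 and 2 for MyS3KO against Smad3fl, and 4 for the difference of knockout effects with TGF-β1. Library totals gave 4 in MyS3KO with TGF-β1, and 6 and 4 for the differences of knockout effects; DESeq2 gave 4 in MyS3KO, 1 for the libraries labelled MyS2KO against Smad2fl with TGF-β1 and 3 for the difference with TGF-β1, for which DESeq2 size factors, the stricter filter and the fit without both Smad3fl libraries numbered 3 gave 1 each. That last fit gave 3 for TGF-β1 in Smad3fl. The share of all genes called under each of these settings is not given here, so the counts are not read as particular to the members. The cause of these changes was not tested.

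Leaving out each library in turn gave 3 to 6 called members for TGF-β1 in Smad2fl, 0 to 1 in the libraries labelled MyS2KO (0 without any of 5 of the 6), 3 to 11 in Smad3fl (3 without the untreated library numbered 3), 1 to 6 in MyS3KO and 13 to 19 for the average. It gave 0 to 5 and 1 to 2 for MyS3KO against Smad3fl untreated and with TGF-β1, 6 to 11 and 2 to 7 for Smad3fl against Smad2fl, 0 to 3 and 0 to 4 for the differences of knockout effects, and 0 for both interactions and both comparisons of the libraries labelled MyS2KO with Smad2fl. Depth kept Cth, with 11 to 32 reads per group of 3 libraries, out of the tests.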
